A study of Mus musculus with 16 samples.

Results

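The genes described here encode the proteins of the cytosolic ribosome, and they were measured in whole mouse kidney. They were chosen by name: every protein-coding gene whose symbol starts with Rpl or Rps followed by a digit, or by p and a digit, leaving out the Rps6k kinases. This gave 91 of the 30277 genes in the table. Of these, 46 encode proteins of the large 60S subunit and 30 encode proteins of the small 40S subunit. Another 7 are intronless copies annotated as protein-coding (Rpl10-ps3, Rpl36a-ps1, Rpl9-ps6, Rplp2-ps1, Rps18-ps5, Rps18-ps6 and Rps27rt), and 6 are paralogs of a ribosomal protein (Rpl3l, Rpl7l1, Rpl22l1, Rpl36al, Rpl39l and Rps27l). The remaining 2, Rps19bp1 and Rps23rg1, matched the rule by name and are not classed here as ribosomal proteins (name-only genes). The ribosomal components Rpsa, Fau and Rack1 fall outside the naming rule and are given for comparison.

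A ribosome holds a single copy of nearly every ribosomal protein, so the cell has to make them in matched amounts. Their mRNAs are short and abundant and start with a C followed by a run of pyrimidines, the 5' terminal oligopyrimidine (TOP) element, through which mTOR and the RNA-binding protein Larp1 control their translation. Because these mRNAs are abundant they have often been copied back into the genome by reverse transcription, and mouse chromosomes carry many intronless copies that are nearly identical to the spliced gene.

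The samples were 16 kidney samples of congenic C57Bl/6J mice, 4 in each of 4 groups, numbered as replicates by the labels, which do not state that each came from a separate animal. The Kl/Kl groups (KlKl below) are labelled as having renal failure and the controls as having healthy renal function. The male samples comprised 4 KlKl at 46 to 59 days of age and 4 controls at 46 to 48 days, of which 2 were +/Kl and 2 were +/+. The female samples comprised 4 KlKl at 47 to 52 days and 4 controls at 47 to 57 days, all of them +/Kl. Kl encodes Klotho, a membrane protein of the kidney tubule that acts as a co-receptor for the hormone Fgf23. Kl averaged 0.943 ± 0.519 TPM in male KlKl and 10.2 ± 1.70 TPM in male control kidneys, and 0.142 ± 0.0790 TPM in female KlKl and 3.39 ± 1.70 TPM in female control kidneys (SD, n = 4 each), with no overlap within either sex. Read numbers, recovered from the deposited values, ran from 13029864 to 20109192 in males and from 8209463 to 14505278 in females. The library names carry sample numbers that recur once in each sex, so sex and a difference in library handling or sequencing cannot be told apart in any comparison of males with females. Female control 3 stood apart: it had the fewest reads and 4.82% of them on ribosomal RNA, against 0.289% to 0.818% in the other 15 libraries.

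Many rows of the table hold copies of these genes. A search of the annotated pseudogenes and intronless genes for sequences like the transcript of each ribosomal protein gene found 893 copies, which belonged to 74 of the 76 families; Rpl8 and Rpl41 had none. Rps18, a protein of the small subunit head, and Rps7, a small subunit protein that also binds Mdm2, are shown with the copies whose values are described below. Positions count from the A of the start codon in the GENCODE M21 transcripts (GRCm38), and capitals mark the bases that differ within the stretch shown. From position 97 to 186 of Rps18, the gene and its copies read as follows.
Rps18: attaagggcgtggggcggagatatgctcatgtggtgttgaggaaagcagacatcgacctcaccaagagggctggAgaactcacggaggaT
Rps18-ps5: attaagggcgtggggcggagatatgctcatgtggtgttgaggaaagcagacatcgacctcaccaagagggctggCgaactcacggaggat
Rps18-ps6: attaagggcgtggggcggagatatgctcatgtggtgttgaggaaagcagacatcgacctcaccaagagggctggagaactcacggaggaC
Over the 459 bases of coding sequence, Rps18-ps5 differed from Rps18 by 3 substitutions (T11A, A171C and A337C) and Rps18-ps6 by 4 (T186C, A337C, G371A and G431A), where the base of Rps18 comes first. A read within the coding sequence that covers none of these positions matches all 3 genes. The first 90 coding bases of Rps7 and of its copy Rps7-ps3 are next.
Rps7: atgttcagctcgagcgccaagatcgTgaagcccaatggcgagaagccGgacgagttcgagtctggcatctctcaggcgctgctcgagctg
Rps7-ps3: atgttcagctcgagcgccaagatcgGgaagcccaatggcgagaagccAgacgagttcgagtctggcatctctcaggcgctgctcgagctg
Rps7-ps3 differed from Rps7 by 3 of 585 coding bases (T26G, G48A and G123T). Rpl10-ps3 and Rps27rt had 0 differences from Rpl10 and Rps27 over the whole coding sequence.

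In the mm39 coordinates of the table, Rps18 lies on chr17:34170973-34174976 (minus strand), Rps18-ps5 on chr13:28441511-28442118 (plus strand) and Rps18-ps6 on chr13:97896580-97897141 (minus strand). Rps7 lies on chr12:28680853-28685953 (minus strand) and Rps7-ps3, a processed pseudogene that is not among the 91 genes, on chrX:151692501-151693152. The copies are separate rows of the table, and they took between 54.2% and 59.9% of the reads of the 76 families in every library. In 50 families the spliced gene held under 50% of its family's reads. The copy Rplp2-ps1 had no reference transcript and could not be searched. Its 118 RPM are therefore not in the Rplp2 family, where Rplp2 itself had 112 RPM, and all values with copies added leave them out.

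Rps27, a zinc-finger protein of the small subunit, held 0.525% of its family's reads, and Rpl23a, a large subunit protein near the exit of the nascent chain, held 0.573%. Rpl10, which completes the large subunit late in its assembly, was counted at 11.4 RPM, a read count scaled to the library total, while its identical copy Rpl10-ps3 was counted at 486 RPM. Rps27 was counted at 1.61 RPM and its identical copy Rps27rt at 304 RPM. The value of such a spliced gene covers only a small part of the reads of its family. How a read that matches both a gene and its copy was counted is not given in the sources used here. The split between them may follow that rule, and RNA of an identical gene and copy cannot be told apart in these values. Levels of different genes were compared as RPM per kilobase of coding sequence, because the deposited TPM values had been divided by gene spans that include introns.

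On that scale the 3 lowest spliced genes were Rpl23a with 4.49, Rps27 with 6.39 and Rps13 with 11.3 RPM per coding kilobase. The 3 highest were Rpl41, which encodes the smallest ribosomal protein, with 3933, Rplp1, of the acidic stalk that recruits elongation factors, with 1591, and Rpl13a with 1057. The measure divides by the coding sequence alone, which is 138 of the 509 transcript bases of Rpl41. Per kilobase of transcript, Rplp1 had 1090, Rpl41 1066, Rps15 791 and Rpl13a 615 RPM. With the reads of the copies added, Rpl23a came to 784, Rps27 to 1216 and Rps13 to 497. The ratio of the upper to the lower quartile over the 76 genes was 4.16 for the genes' own reads and 1.60 with copies added. The whole range with copies added was from 295 (Rpl35) to 3933 (Rpl41), a ratio of 13.3. Without division by length it was from 109 (Rpl35) to 841 RPM (Rpl13a), a ratio of 7.73. The levels of the 76 genes thus lay closer together once the copies were counted with them.

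**Figure D1:**
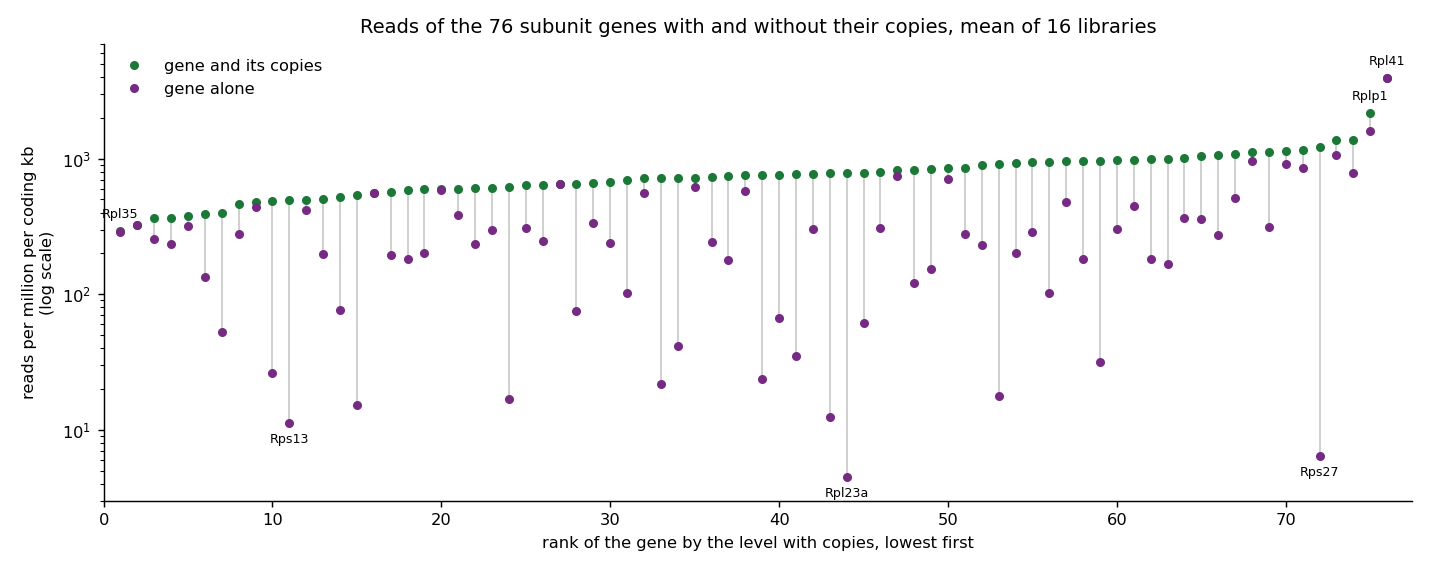
RPM (scaled reads) per kilobase of coding sequence (log axis) for the 76 ribosomal protein genes, averaged over 16 libraries and ranked by the level with copies, from the spliced gene's own reads and with the reads of its copies added; 6 genes at the ends of either range are named. Own reads reach down to 4.49 for Rpl23a, whereas with copies added the lowest gene is Rpl35 at 295.

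The sequence around the transcription start is shown for 6 genes whose values appear below, with 15 bases before and 15 from the start (RefSeq, GRCm38.p6), and CTTTC, a pyrimidine run, in capitals where it occurs first.
Rpl38: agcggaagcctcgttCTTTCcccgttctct
Rpl35: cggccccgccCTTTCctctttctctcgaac
Rpl27a: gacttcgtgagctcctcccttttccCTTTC
Rpl26: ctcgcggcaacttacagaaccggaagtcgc
Rpl4: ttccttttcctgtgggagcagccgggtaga
Rps2: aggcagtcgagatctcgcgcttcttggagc
These windows are chr11:114668565-114668594 (plus), chr2:39005117-39005146 (minus), chr7:109519180-109519209 (plus), chr11:68901551-68901580 (plus), chr9:64173372-64173401 (plus) and chr17:24720048-24720077 (plus), in the order printed. RefSeq promoter windows were matched for 56 of the 76 genes, some with several starts, giving 66 windows. Searched on both strands from 15 bases before to 20 after the start, CTTTC was present in 28.8% of these 66 windows and in 8.82% of all 32851 promoter windows. Over the whole window of 250 bases before to 50 after the start, CCGGAAG, the core bound by Ets factors such as Gabpa, was present in 36.4% and 8.86%, and AAGATGG, the core of the Yy1 motif, in 16.7% and 6.34%. GGGCGG, the GC box, was present in 60.6% of the genes' windows and 35.7% of all windows, and TATAAA in 9.09% and 13.6%. These are matches of letters, not measured binding sites.

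The 91 genes together took about 1% to 2% of the reads. In males they took 1.15%, 1.04%, 1.48% and 1.08% of reads in the KlKl libraries, against 1.07%, 1.03%, 0.913% and 1.04% in the controls. In females they took 1.58%, 1.62%, 1.71% and 1.76% in the KlKl libraries, against 1.34%, 1.44%, 2.51% and 1.52% in the controls. KlKl and control libraries overlapped in both sexes, and male KlKl 3 and female control 3 were the highest libraries of their sex. The fits below that leave out both are therefore tied to the values of these genes, and they are given as a description. Every female library lay above every male library except male KlKl 3, which exceeded 2 female controls. Mean shares were 1.19% ± 0.199 in male KlKl and 1.01% ± 0.0692 in male controls, and 1.67% ± 0.0834 in female KlKl and 1.70% ± 0.544 in female controls (SD, n = 4 each). As a share of the deposited TPM the male groups did not overlap, with 1.57% to 2.39% in male KlKl and 1.35% to 1.54% in male controls. The female groups did, with 1.83% to 2.06% in female KlKl and 1.54% to 2.96% in female controls. Mitochondrially encoded transcripts held 34.4% to 42.7% of the TPM in male KlKl and 41.2% to 47.5% in male controls. Of reads on nuclear protein-coding genes, the 91 genes took 1.32% to 1.86% in male KlKl and 1.19% to 1.42% in male controls. On that measure the male groups overlapped. With their copies added, the 76 families took 2.12% to 3.20% in male KlKl and 1.92% to 2.19% in male controls, and 3.27% to 3.69% in female KlKl and 2.82% to 4.80% in female controls. In kidney RNA, fewer cells of a type and less RNA per cell cannot be told apart.

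**Figure D2:**
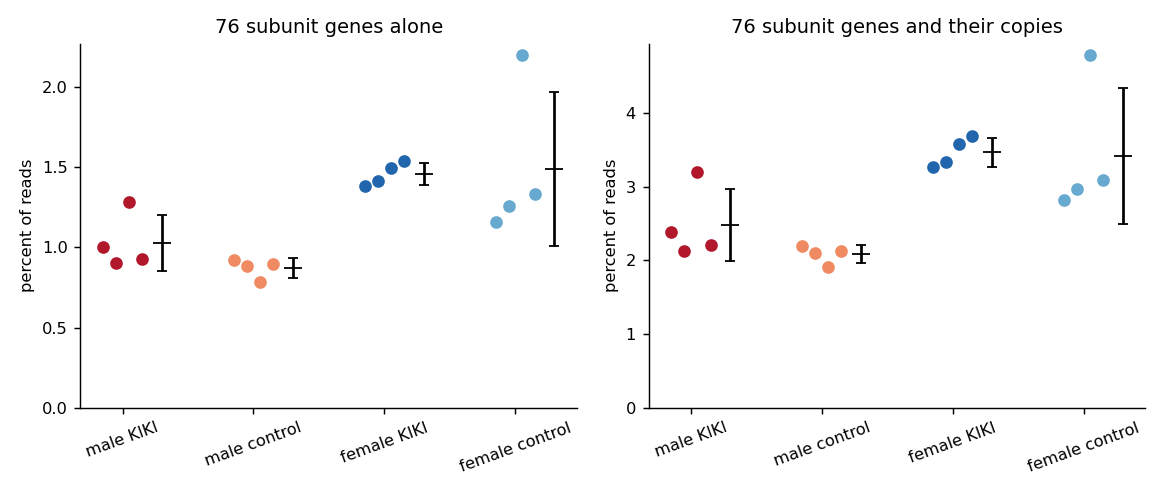
Percentage of reads in each library on the 76 large and small subunit genes alone, and on these genes with their copies added; points are libraries, bars show the mean and SD of 4. Female libraries lie above most male libraries, and female control 3 is the highest in both panels.

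Differences between groups were tested with limma on log2(TPM + 1), with Benjamini-Hochberg adjustment over the 8059 genes that reached 1 TPM in at least 4 libraries and a threshold of 0.05. On this scale the change of a gene of low TPM is understated. Of the 91 genes, 86 passed this filter. Those not tested were Rpl11, which with Rpl5 and 5S rRNA binds Mdm2, Rpl23a, the heart and muscle paralog Rpl3l, the testis paralog Rpl39l, and Rps23rg1. Rpl11 had 0.342 to 0.824 TPM and Rpl23a 0.294 to 0.991 TPM over the 16 libraries, and both hold few of their family's reads. Rpl11 was counted at 16.8 RPM, above Rpl10 at 11.4 RPM, which was tested. Its deposited TPM is divided by a gene span of 25164 bases, against 2324 for Rpl10. Rpl3l reached at most 0.252 TPM and Rps23rg1 at most 0.222 TPM, and Rpl39l had reads in 3 libraries.

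Whether the ribosomal protein genes differ in kidneys of Klotho-deficient mice was asked in each sex. None of the 86 genes passed in males, where 8 of the 8059 genes (0.0993%) were called. All 86 had a positive difference between male KlKl and male controls, with a median of 0.32, while 90.9% of all genes tested were also positive, with a median of 0.18. At an unadjusted p under 0.05, 20 of the 86 genes were higher in male KlKl and 0 lower, against 19.5% of all genes higher. That count rested on single libraries. It was 53 without female control 3, where 26% of all genes were higher. It was 2 without male KlKl 1, without male KlKl 3 or without male control 2 (12.1%, 10.3% and 10.3% of all genes), 3 without male control 3 (15.8%) and 8 without male control 1 (10.7%). With voom on recovered reads none of 90 genes passed (0.0341% of all genes did), and at an unadjusted p under 0.05 it had 0 higher and 2 lower, against 3.29% of all genes lower. In 19 of the 86 genes every male KlKl library lay above every male control library, and 11.6% of all genes did so.

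Rpl14, a large subunit protein, had 55.4, 32.9, 60.9 and 37.6 TPM in male KlKl kidneys, against 32.4, 29.9, 31.6 and 32.8 TPM in male controls, a log2 difference of 0.50 ± 0.21 (SE, limma adjusted p = 0.24). The groups did not overlap, although the lowest KlKl library lay just above the highest control, and KlKl libraries 1 and 3 were the high ones. The copy Rpl36a-ps1 had 0.49. The smallest differences in males were those of Rps27 (0.019), Rpl27 (0.021) and the name-only gene Rps19bp1 (0.045), whose product binds Rps19. The median was 0.33 in the 44 large subunit genes tested, 0.33 in the 30 small subunit genes, 0.36 in the 7 copies and 0.12 in the 4 paralogs. Without male KlKl 3 the median of the 86 genes was 0.21, and after scaling by median ratios it was 0.086 with 71 of 86 positive.

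In females none of the 86 genes passed either, where 1 of the 8059 genes (0.0124%) was called by limma; 5 of the 86 were higher at an unadjusted p under 0.05, against 4.33% of all genes, and 0 lower. That count was 12 without female control 3 (2.38% of all genes) and 31 without both female control 3 and male KlKl 3 (4.21%). It was 3 without female KlKl 1 (2.25%), 0 without female KlKl 3 (1.91%), 1 without female KlKl 4 (4.55%) and 2 without female control 4 (3.64%). Voom on recovered reads had 0 at either level, with 0.0114% of all genes called and 2.55% at an unadjusted p under 0.05. The difference was positive in 55 of 86 genes with a median of 0.047, against 82% of all genes and a median of 0.10. In 3 of the 86 genes every female KlKl library was above every control, against 2.79% of all genes. The largest difference was that of the copy Rps18-ps6 (0.47), followed by Rpl4, a core large subunit protein, with 0.42 ± 0.17 (SE, limma adjusted p = 0.73). Rpl4 had 84.6, 70.8, 96.7 and 90.4 TPM in female KlKl kidneys, against 73.4, 63.5, 65.6 and 52.1 TPM in female controls. Only KlKl 2 fell among the controls. At the other end were Rpl39, which lines the exit tunnel, with -0.22, Rpl27a with -0.17 and Rpl36a-ps1 with -0.16. In each of these 3 genes female control 3 was the highest control, and Rpl39 had 48.6, 46.3, 45.0 and 37.8 TPM in female KlKl kidneys, against 32.6, 41.5, 124 and 42.7 TPM in female controls. Without female control 3 the median over the 86 genes was 0.23, with 80 positive, without female control 1 it was -0.017, and none passed in either case. After median-ratio scaling the median was -0.12, with 18 of 86 positive.

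Averaged over both sexes, none of the 86 genes passed, where 3 of the 8059 genes (0.0372%) were called by limma; 18 were higher at an unadjusted p under 0.05, against 25.9% of all genes. That count was 59 without female control 3 (24.5% of all genes) and 57 without both female control 3 and male KlKl 3 (19.9%), against 10 without male KlKl 3 (18.3%) and 11 without female KlKl 3 (18.4%). Voom on recovered reads called none of them (0.0227% of all genes) and had 0 higher and 3 lower at an unadjusted p under 0.05, against 3.15% of all genes lower. The difference was positive in 84 of 86, against 91.4% of all genes. Rpl4 had the largest difference, 0.41 ± 0.12 (SE, limma adjusted p = 0.16). In males it had 127, 91.8, 138 and 88.9 TPM in KlKl kidneys, against 83.01, 75.5, 82.5 and 93.8 TPM in controls, and KlKl libraries 2 and 4 lay within the control range. Rpl14 had 0.39 ± 0.15 and Rps2, at the mRNA entry channel of the small subunit, 0.38 ± 0.11 (limma adjusted p = 0.17 and 0.16). Rps2 had 72.9, 60.8, 69.2 and 53.1 TPM in male KlKl kidneys, against 49.1, 48.8, 44.0 and 54.9 TPM in male controls. In females it had 44.7, 35.6, 57.4 and 49.6 TPM in KlKl kidneys, against 37.5, 38.2, 30.4 and 33.6 TPM in controls. In each sex a single KlKl library of Rps2 fell within the control range. The median over the 86 genes was 0.19 and over all genes 0.14, and after median-ratio scaling the 86 genes had -0.017. The lowest were Rpl27 (-0.024), Rps13 (-0.0067) and Rpl36a (0.0069). With age as a covariate, Rpl4, Rps2 and the stalk base Rplp0 passed, among 1407 of all 8059 genes (17.5%). The oldest samples were male KlKl 4 at 59 days and female control 3 at 57 days, and all others were 46 to 52 days old. Age and what sets female control 3 apart therefore cannot be told apart in that fit.

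The difference between the sexes in the KlKl effect was tested directly. None of the 86 genes passed and 0% of all genes were called; at an unadjusted p under 0.05 limma and voom on recovered reads each had 0 of these genes, while 2.17% of all genes passed at that level by limma and 2.4% by voom. Without female control 1, 6 of the 86 genes were positive at an unadjusted p under 0.05 by limma, against 3.34% of all genes. The median was 0.26 over the 86 genes and 0.072 over all genes. Rpl36a-ps1 (0.65), Rpl39 (0.59) and Rps21 (0.57) had the largest positive values, and Rps27 (-0.25), Rps18-ps6 (-0.24) and Rpl10 (-0.23) the largest negative ones. The median was 0.093 without female control 3, 0.16 without male KlKl 3 and -0.0084 without both.

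**Figure D3:**
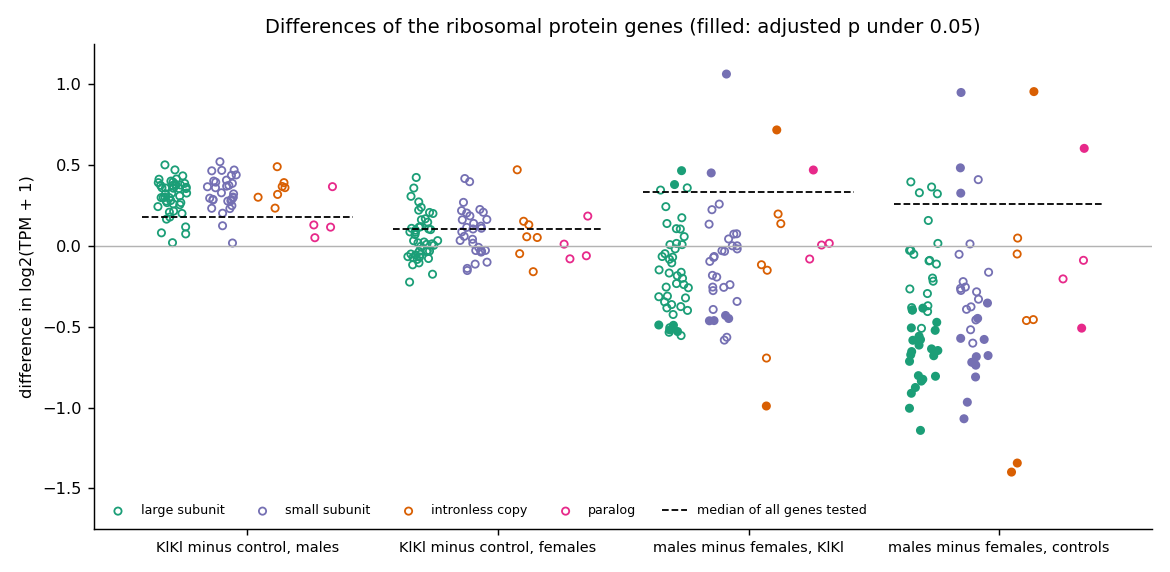
Log2(TPM + 1) differences of the 86 tested genes, by class, for KlKl minus control in males, KlKl minus control in females, males minus females in KlKl, and males minus females in controls. Filled points have a limma adjusted p under 0.05 and the dashed lines mark the median of all 8059 genes; no point is filled in the KlKl comparisons.

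Blood-cell and immune markers were read beside these values. The summed TPM of 5 erythrocyte and reticulocyte genes ran from 96.0 to 479 in male KlKl and from 10.98 to 142 in male controls, and from 16.5 to 58.1 in female KlKl and from 3.31 to 114 in female controls. The summed TPM of 6 macrophage genes ran from 12.3 to 32.02 in male KlKl and from 9.43 to 15.7 in male controls, and from 15.99 to 17.6 in female KlKl and from 9.67 to 14.2 in female controls. The summed T cell markers were low and did not overlap in males, with 0.317 to 0.701 TPM in male KlKl and 0.162 to 0.305 TPM in male controls. B and plasma cell markers summed to at most 2.11 TPM in any library. The 4 proximal tubule markers summed to 193 to 269 TPM in male KlKl and 188 to 266 TPM in male controls, and to 199 to 216 TPM in female KlKl and 95.4 to 196 TPM in female controls. The 2 thick ascending limb markers summed to 155 to 234 TPM in male KlKl and 115 to 140.3 TPM in male controls, without overlap, and to 87.7 to 123 TPM in female KlKl and 75.1 to 120 TPM in female controls. Summed markers of principal cells, podocytes, endothelium and adipocytes overlapped between KlKl and controls in both sexes. The part of these cells in the ribosomal protein values was not tested.

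With the reads of copies added to their gene, voom called none of the 76 families in males (0.0345% of all genes were called), in females (0.0115%), in the mean of both sexes (0.023%) or in the difference between the sexes (0%). At an unadjusted p under 0.05 there was 1 family, higher in female KlKl, where 1.29% of all genes were higher. Without female control 3 and male KlKl 3, 16 of the 76 families were higher at that level in female KlKl (1.69% of all genes) and 8 in the mean of both sexes (2.89%). Since these libraries had the highest shares of these genes in their sex, those counts are a description and not a separate test. The median over the families was 0.088 in males and -0.074 in females.

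By role, no ribosomal protein gene of the groups below passed in KlKl against control. The 3 stalk genes Rplp0, Rplp1 and Rplp2 had differences of 0.38 to 0.40 in males and of -0.077 to 0.36 in females. Of the 18 genes mutated in human Diamond-Blackfan anaemia, a failure of red cell production, 17 were tested, with a median of 0.28 in males and -0.0083 in females. Rpl5 had 0.28 in males and -0.066 in females. Of the components outside the naming rule, Rpsa, a small subunit protein, had 0.29 in males and -0.027 in females, Fau 0.39 and -0.020, and the scaffold protein Rack1 0.36 and 0.17. The 14 translation factors with TOP mRNAs had a median of 0.40 in males and 0.19 in females, and the translocase Eef2 (0.46), the RNA-binding protein Hnrnpa1 (0.39) and Eef1a1 (0.39), which brings aminoacyl-tRNA to the ribosome, were largest in the mean of both sexes.

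Genes that build ribosomes or control TOP mRNAs had no called member in these comparisons. Of 33 ribosome biogenesis genes 23 were tested, with a median of 0.14 in males and 0.14 in females. Of 17 TOP and mTOR regulators 11 were tested, with a median of 0.17 in males and 0.11 in females. The separate ribosome of mitochondria had 71 of 78 genes tested, with a median of 0.14 in males and 0.067 in females. The 88 tested of 210 pseudogenes named for a ribosomal protein had 0.35 in males and 0.12 in females. Over all genes tested the medians were 0.18 in males and 0.10 in females.

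Males and females differed in these genes. In control kidneys 38 of the 86 genes were lower in males and 5 higher by limma, while 8.3% of all genes were lower and 44.3% higher. The median difference of males minus females was -0.40 over the 86 genes and 0.26 over all genes. Of the 44 large subunit genes 23 were lower in males, and of the 30 small subunit genes 12. In 41 genes every male control library lay below every female control library and in 5 above, against 7.3% and 41.3% of all genes. The male controls were part +/+ and the female controls all +/Kl. Among +/Kl controls alone, which leaves 2 male libraries, 15 of the 86 genes were lower in males and 4 higher, against 4.34% and 23.9% of all genes, with a median of -0.43. Without female control 3 the counts were 31 lower and 4 higher, with a median of -0.25, and without male control 4 they were 37 lower and 3 higher.

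The largest fall was that of the copy Rps18-ps5. It had 94.9, 78.5, 85.0 and 95.9 TPM in male controls, against 144, 218, 361 and 267 TPM in female controls (-1.40 ± 0.23, SE, limma adjusted p = 0.00017), and the groups did not overlap. Rpl36a-ps1 had -1.34 and Rpl39 had -1.14 ± 0.29 (limma adjusted p = 0.0046). Rpl39 had 25.1, 24.1, 19.98 and 22.97 TPM in male controls, and all 4 values lay under the female control range given above. Rps27a, made as a fusion with ubiquitin, had -1.07, Rpl27a had -1.004, and Rps6, the substrate of the S6 kinases, had -0.97. In every gene of this paragraph female control 3 was the highest library, and it enlarged these differences. In female controls Rps27a had 16.8, 18.1, 58.2 and 19.6 TPM, Rpl27a 15.6, 20.1, 43.0 and 22.4, and Rps6 18.97, 24.3, 53.4 and 24.6. Male controls lay below all of them, with 10.9 to 11.4, 10.6 to 12.2 and 12.2 to 15.2 TPM.

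Rpl26, which binds p53 mRNA, had 22.5, 21.1, 21.01 and 24.6 TPM in male controls, against 31.8, 35.7, 59.3 and 38.6 TPM in female controls (-0.82 ± 0.16, limma adjusted p = 0.00081). No male library reached the lowest female library. The other large subunit genes that were lower in males were Rpl36, Rpl24, Rpl37, Rpl13, Rpl37a, Rpl35, Rpl38, Rplp1, Rpl14, Rpl34, Rpl13a, Rpl23, Rpl17, Rpl7a, Rpl19, Rpl21, Rpl5, Rpl32, Rpl18 and Rpl15, from -0.91 (Rpl36) to -0.38 (Rpl15). Small subunit genes lower in males also included Rps24, Rps10, Rps28, Rps18, Rps3a1, Rps29, Rps23 and Rps26, which ran from -0.81 (Rps24) to -0.45 (Rps26). The paralog Rpl22l1 fell by 0.51 in males. Of the Diamond-Blackfan genes 11 of 17 were lower in males and 2 higher, and of the stalk genes Rplp1 was lower (-0.67, limma adjusted p = 0.021), while Rplp0 had 0.32 and Rplp2 -0.11.

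Few of these genes were higher in males. They were Rps18-ps6 (0.96 ± 0.20), Rps7 (0.95 ± 0.22), the nucleolar paralog Rpl7l1 (0.60 ± 0.10), Rps2 (0.48 ± 0.15) and Rps27 (0.33 ± 0.13) in controls, with limma adjusted p from 0.00024 to 0.041. Rps7 had 7.97, 8.99, 8.21 and 9.93 TPM in male controls, against 4.88, 3.46, 6.49 and 2.30 TPM in female controls. The male values of Rps7 were all above the female ones. Rpl7l1 had 6.92, 6.89, 6.96 and 7.24 TPM in male controls, against 4.89, 4.60, 4.17 and 3.49 TPM in female controls, again without overlap.

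In KlKl kidneys 9 of the 86 genes were lower in males and 6 higher, while 3.72% of all genes were lower and 50.9% higher. The median was -0.11 over the 86 genes and 0.33 over all genes. In 15 genes every male library lay below every female library and in 5 above, against 2.59% and 47.2% of all genes. The genes lower in males were Rps18-ps5 (-0.99), Rpl26 (-0.53), Rpl37 (-0.52), Rpl24 (-0.49), Rpl35 (-0.49), Rps29 (-0.46), Rps28 (-0.46), Rps18 (-0.45) and Rps10 (-0.43), and each of them was also lower in male controls. Rps18-ps5 had 140, 87.7, 139 and 97.6 TPM in male KlKl, against 224, 240, 229 and 215 TPM in female KlKl, without overlap. The genes higher in males were Rps7 (1.06), Rps18-ps6 (0.72), Rpl7l1 (0.47), Rpl3, which lies at the peptidyl transferase centre (0.47), Rps2 (0.45) and Rpl36a (0.38). Without male KlKl 3 the counts were 19 lower and 4 higher, with a median of -0.21; they were 3 lower and 6 higher without male KlKl 2, and 8 lower and 3 higher without male KlKl 1. They were 5 lower and 7 higher without male KlKl 4. The count of genes lower was 5 when female KlKl 1, 2 or 3 was left out in turn, with 3 higher without female KlKl 2. Since all groups share 1 estimate of the spread, the counts were 21 lower without female control 3 and 15 lower without female control 1. With each library left out in turn, between 3738 and 4839 of all genes were called in either direction. The counts with a library left out have no share of all genes by direction beside them and cannot be set against the other genes.

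The scaling of the libraries moves all sex differences together. After median-ratio scaling, which brings the median of all genes close to 0, 71 of the 86 genes were lower and 3 higher in male controls, and 52 lower and 1 higher in male KlKl. On that scale 23.9% of all genes were lower and 24.5% higher in male controls, and 17.3% lower and 18.9% higher in male KlKl. Of the 6 genes called higher in male KlKl, Rps18-ps6, Rpl7l1, Rpl3, Rps2 and Rpl36a were not called there, and Rps2 had -0.022. In controls the calls of Rps2 and Rps27 as higher in males did not hold. Rps7 and Rps18-ps5 kept their direction and their call in both genotypes.

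Reads were also compared directly, without and with copies. With voom on recovered reads, 66 of 90 genes were lower in male controls and 3 higher (18.3% and 21.3% of all genes), and 51 were lower in male KlKl and 2 higher (13% and 15.2%). With copies added, 64 of the 76 families were lower in male controls and 0 higher, while 18.2% of all 17401 genes were lower and 21.2% higher; the median was -0.73 over the families and -0.0080 over all genes. In KlKl kidneys 50 families were lower in males and 0 higher, against 12.9% of all genes lower and 15.1% higher, with a median of -0.57. Without female control 3 and male KlKl 3 the counts were 67 lower in male KlKl and 65 lower in male controls, against 19.4% and 21.8% of all genes. The largest differences in controls were those of Rpl38, a small protein tied to the translation of Hox mRNAs in mouse embryos (-1.57 ± 0.22, limma adjusted p = 8.6e-05), Rpl39 (-1.48 ± 0.28), Rpl36a (-1.37 ± 0.24) and Rpl36 (-1.30 ± 0.20). Near 0 were Rps2 (0.24 ± 0.12), Rpl4 (0.11 ± 0.13), Rplp0 (0.063 ± 0.14), Rpl3 (-0.068 ± 0.19) and Rpl5 (-0.092 ± 0.20), none of which passed.

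Rps7, counted higher in males, has a copy that was counted lower. A coding read that covers none of their 3 differing positions matches both, and how such a read was counted is not given in the sources used here. Its own level was 47.8, 55.0, 45.9 and 54.3 RPM in male controls, against 34.5, 24.6, 48.3 and 17.7 in female controls. Its copy Rps7-ps3 had 170, 178, 170 and 201 RPM in male controls, against 326, 336, 342 and 270 in female controls. By voom Rps7 was higher in males (0.82 ± 0.24, limma adjusted p = 0.011) and Rps7-ps3 lower (-0.82 ± 0.16, limma adjusted p = 0.00091). The whole Rps7 family had -0.39 ± 0.16 and did not pass (limma adjusted p = 0.056), and Rps7 itself held 16.2% of its family's reads in male controls and 7.30% in female controls.

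The rows of the Rps18 family also differed in opposite directions, with the same limit on reads that match several of them. Rps18 had 147, 135, 119 and 125 RPM in male controls, against 223, 248, 336 and 284 in female controls, and Rps18-ps5 had 67.7, 57.2, 56.5 and 62.4 in male controls, against 121, 184, 320 and 244 in female controls. Rps18-ps6 had 106, 91.8, 84.7 and 103 RPM in male controls, against 82.2, 65.3, 47.7 and 58.1 in female controls. All male libraries lay below all female libraries for Rps18 and Rps18-ps5 and above them for Rps18-ps6. By voom the differences were -1.05 ± 0.15 for Rps18, -1.77 ± 0.23 for Rps18-ps5 and 0.63 ± 0.16 for Rps18-ps6 (limma adjusted p = 8.4e-05, 4.3e-05 and 0.0046), and -0.96 ± 0.15 for the whole family. In KlKl kidneys Rps18-ps6 had 0.27 ± 0.15 by voom and did not pass (limma adjusted p = 0.21).

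**Figure D4:**
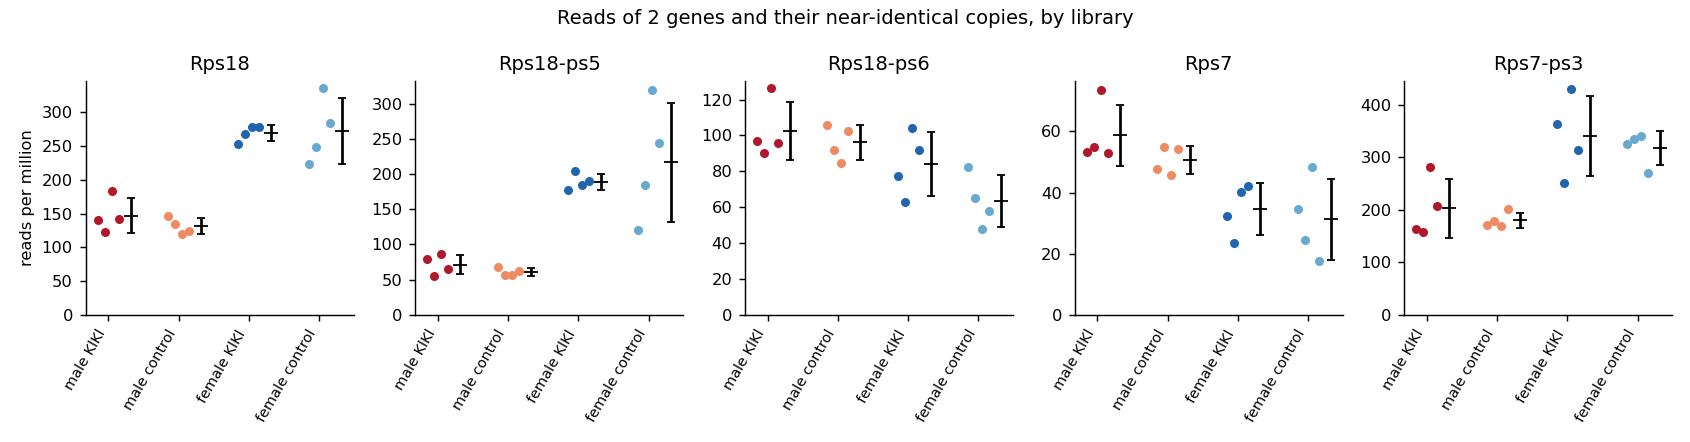
RPM (scaled reads) in each of the 16 libraries for Rps18, its copies Rps18-ps5 and Rps18-ps6, Rps7 and its copy Rps7-ps3. In controls, male libraries lie below female libraries for Rps18, Rps18-ps5 and Rps7-ps3, whereas Rps18-ps6 lies above.

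Most ribosomal protein transcripts are short, and short transcripts of other genes also differed between the sexes. Among transcripts of up to 600 bases, the median difference of male minus female controls was -1.01 for 17 ribosomal protein families and -0.64 for 146 other genes. For transcripts over 600 and up to 1000 bases the medians were -0.69 for 33 families and -0.42 for 647 other genes. Over 1000 and up to 1500 bases they were -0.56 for 16 families and -0.18 for 1324 other genes, and over 1500 and up to 3000 bases -0.64 for 8 families and -0.026 for 4916 other genes. Over 3000 bases the 2 families had a median of -1.03 and 6835 other genes 0.10. Medians of other genes rose with length through all classes and those of the families did not. The 2 longest families, Rps15a and Rps20, have 390 and 357 coding bases in reference transcripts of 5179 and 3706 bases. Their length class thus depends on the transcript chosen. In each class of controls the ribosomal protein median was the lower. In KlKl kidneys the families had -0.78, -0.52, -0.47, -0.51 and -0.77 in these length classes, from short to long, and the other genes -0.59, -0.40, -0.19, -0.026 and 0.10.

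The share of reads on short transcripts differed between libraries too. These shares are of the reads on nuclear protein-coding genes with a reference transcript, ribosomal proteins left out. Transcripts of up to 600 bases held 1.07% to 1.12% in male KlKl and 0.924% to 1.14% in male controls. In females they held 1.75% to 1.93% in KlKl and 1.56% to 2.57% in controls. Female control 3 was the highest. Across the 76 families Spearman's rho between the sex difference in controls and length was 0.43 for the transcript and 0.66 for the coding sequence, as a description, since all points come from the same libraries. After a trend on transcript length was removed from each library, 30 of 76 families were lower in male controls and 1 higher, against 16.6% and 19.3% of 13951 genes, with a median of -0.30. In KlKl kidneys 15 families were lower and 0 higher, against 10.3% and 12.7%, with a median of -0.25. Both fits used the lengths of the reference transcripts chosen, also for Rps15a and Rps20.

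**Figure D5:**
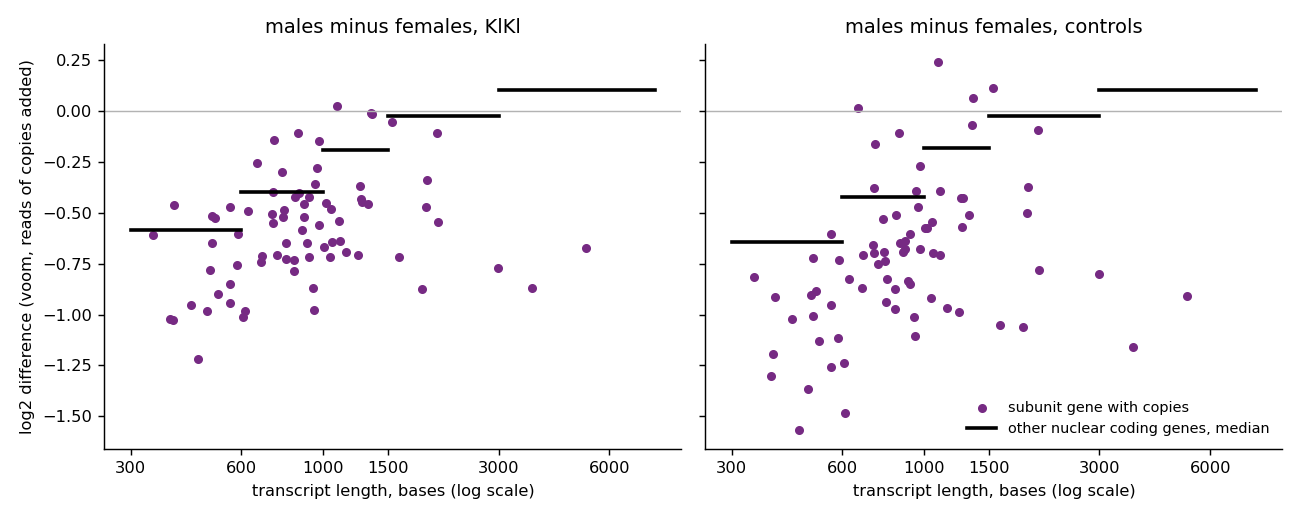
Male minus female log2 difference, with copies added, against transcript length in bases (log axis) for the 76 families, in KlKl and in control kidneys. Black bars are the medians of other genes in each length class. In controls the families of up to 600 bases have a median of -1.01 against -0.64 for other genes. The 2 families over 3000 bases (Rps15a and Rps20, placed by the reference transcript chosen) have -1.03 against 0.10.

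Other parts of the translation machinery were read on the TPM scale, on which 44.3% of all genes were higher in male controls. Of the 14 TOP translation factors 4 were higher in males (Eef2 with 1.19, Eif4b with 0.69, Eef1a1 with 0.39 and Eif3h with 0.22) and 0 lower, with a median of 0.011. Of 23 biogenesis genes 13 were higher and 0 lower, and of 11 TOP and mTOR regulators 7 were higher and 0 lower. Of 71 mitochondrial ribosomal protein genes 17 were higher and 4 lower, with a median of 0.078. Of the components outside the naming rule, Fau, whose product is a ubiquitin-like fusion with a small subunit protein, was lower (-0.90, limma adjusted p = 0.0021). Of the 88 named pseudogenes 36 were lower and 8 higher, with a median of -0.32. The differences between these lists and the ribosomal protein genes were not tested.

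Levels of the paralogs were set beside those of their parents, in RPM per coding kilobase. Rps27l, a p53 target, was at 450, against 6.39 for Rps27 itself and 1216 for Rps27 with its copies. Rpl22l1 was at 121, against 622 for Rpl22 itself and 724 with its copies, and Rpl7l1 at 84.3, against 381 for Rpl7 itself and 599.8 with its copies. Rpl36al was at 526, against 21.7 for Rpl36a itself and 721 with its copies. Rpl3l was at 0.874, against 52.8 for Rpl3 itself and 399 with its copies. None of the paralogs passed in the KlKl comparisons; between the sexes Rpl22 had -0.41 in controls and Rpl22l1 -0.51, while Rpl7 had -0.20 and Rpl7l1 0.60.

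Within groups the families varied together. The correlation of each family, copies added, with the mean of the other 75, over deviations of the 16 libraries from their group means, had a median of 0.90, reached 0.99 (Rpl13), and 60 of 76 exceeded 0.8. Without female control 3 and male KlKl 3 the median was 0.68 and 19 exceeded 0.8, from 0.077 (Rps3) to 0.94 (Rps23). These values describe libraries that share depth and composition, and they carry no test.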

How the data were processed

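RNA was measured in 16 kidney samples; poly(A) RNA was made into libraries with a directional kit, per the labels. The deposited TPM values were made by the authors with Partek on mm39, per the submitters' processing notes; no source used here names the aligner, annotation or counting rules. Each TPM column sums to 309446, and 0 other columns were present. Values equalled reads plus 0.0001, divided by the gene span, which allowed reads to be recovered; among values under 20 reads, 81.2% were whole to within 0.1. A gene listed again was counted once.

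Groups followed the labels, which number replicates without stating separate animals, so p-values measure the spread between these samples. limma 3.58.1 in R 4.3.3 was fitted to log2(TPM + 1) with a mean-variance trend on all 16 libraries, with 4 group means and 6 contrasts, over 8059 genes with at least 1 TPM in 4 or more libraries. The named genes were those that passed, the 3 most positive and 3 most negative per contrast, the 3 highest and lowest levels, the untested genes, the paralogs and the listed role groups. Recovered reads were analysed with limma voom (10 or more reads in 4 or more libraries) with median-ratio library sizes, and again with copies added. Copies were found with blastn 2.17.0 at 80% identity or more over at least 50% of the shorter GENCODE M21 transcript. Scripts were tested on simulated data. Alternatives covered scaling, filters, pseudocount, covariates, replicates left out, copies and transcript length. Values of some named genes are not reported here. The members and lists were chosen with earlier results of these data known.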

Additional observations from a re-analysis of the deposited data

Results flagged for a closer look

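Of 84 values checked within groups of 4, 5 had a library far from the other 3, measured by its gap to the nearest library relative to the group's range. Chance gives about 1 such group in 20, so the number flagged lies near that rate. Values of the same library are also not separate observations. In 4 of the 5 the library was female control 3: Rpl39 at 124 TPM, Rps21 at 296 TPM, Rps27a at 58.2 TPM, and the share of reads on the 91 genes at 2.51%. This library also had the fewest reads and the largest share of ribosomal RNA; the part of either in these values was not tested. The other was Rpl36a in male control 3, at 3.04 TPM.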

How the results depend on the processing

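No ribosomal protein gene passed in the KlKl comparisons under any alternative other than age as a covariate, which gave 3 (Rpl4, Rps2 and Rplp0) in the mean of both sexes. The median in males was 0.086 with median-ratio scaling, 0.055 with voom on recovered reads and 0.088 with copies added. Without female control 3 and male KlKl 3 it was 0.0082 with voom on reads, 0.033 with copies added and 0.031 with the length trend also removed. The median of both sexes was -0.017 with median-ratio scaling and -0.043 with voom on reads. The median of the difference between the sexes was, without those 2 libraries, -0.0084 by limma, -0.10 by voom on reads, -0.12 with copies added and -0.14 with the length trend removed.

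In KlKl kidneys, genes higher and lower in males numbered 1 and 52 (median -0.55) with median-ratio scaling, 1 and 53 (-0.50) with scaling on other nuclear protein-coding genes, and 2 and 51 (-0.55) with voom on reads. With copies added they numbered 0 and 50 (-0.57), and with the length trend removed 0 and 15. Lower genes numbered 16 when these libraries were fitted alone. Without the 2 libraries, lower genes numbered 35 by limma, and higher and lower genes 2 and 69 (-0.61) by voom, 0 and 67 (-0.64) with copies added and 0 and 47 (-0.34) with the length trend removed. In controls they numbered 3 and 71 (-0.79), 3 and 69 (-0.73), and 3 and 66 (-0.77) under the first 3 settings in the same order, 0 and 64 (-0.73) with copies added, and 1 and 30 with the length trend removed. Without the 2 libraries they were 3 and 66 by voom, 0 and 65 with copies added and 5 and 31 (-0.22) with the length trend removed. Among the 44 large and 30 small subunit genes tested, 3 were higher in controls, and against heterozygous controls alone 15 of the 86 genes were lower.

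With median-ratio scaling, positive differences numbered 33 of 86 in the mean of both sexes (84 as reported), 18 in females (55) and 5 for males minus females in KlKl (30). Named results called in neither setting changed sign 70 times over the alternatives. Of results called in either setting, these changed sign. Rps2 had -0.022 in KlKl with median-ratio scaling. With copies added, Rpl3 had -0.012 and Rpl36a -0.98 in KlKl, Rps27 -0.82 in controls, and Rps7 -0.36 in KlKl and -0.39 in controls. With the length trend also removed, Rpl36a had -0.38 in KlKl and Rps7 -0.040 in KlKl and -0.061 in controls. Without the 2 libraries, copies added gave Rpl3 -0.11, Rpl36a -1.05 and Rps7 -0.41 in KlKl, and Rpl5 0.12, Rps27 -0.49 and Rps7 -0.24 in controls; removing the length trend too gave Rpl36a -0.52 and Rps7 -0.14 in KlKl and Rpl5 0.16 in controls. Apart from the fits with copies added, whose own construction moves reads between rows, the cause was not tested.

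Shares of the 91 genes were 1.86% in male KlKl, 1.43% in male controls, 1.94% in female KlKl and 1.94% in female controls of deposited TPM. Of reads on nuclear protein-coding genes they were 1.499% in male KlKl, 1.33% in male controls, 2.31% in female KlKl and 2.42% in female controls.

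Leaving out each replicate in turn gave 3 to 7 higher and 3 to 21 lower in KlKl kidneys, and 3 to 6 higher and 28 to 44 lower in controls. All genes called in these fits, in either direction, numbered 3738 to 4839 in KlKl kidneys and 3580 to 4461 in controls. Over all genes tested, samples of the same number did not deviate together (median correlation -0.041 over 24 pairs, and 0.0066 over 72 pairs of other numbers). In some ribosomal protein genes male KlKl 3 and male control 3 were both the lowest of their group. Rps3a1 had 140 and 83.6 RPM in them, Rpl34 44.4 and 31.8, and Rpl29 103 and 68.3. These are reads of the spliced gene alone, whose share of its family's reads varied widely within the male groups. That share ran from 21.7% to 40.2% in male KlKl and 21.4% to 40.9% in male controls for Rps3a1. For Rpl34 it ran from 22.9% to 40.8% and 22.1% to 41.5%, and for Rpl29 from 50.3% to 88.7% and 51.1% to 90.7%. A low value of the spliced gene is thus not by itself a low value of its family. Rps3a1 and Rpl34 are among the genes called lower in male controls. With the replicate block, 6 were higher and 7 lower in KlKl, 6 and 39 in controls, and 0 in the KlKl comparisons. Counts of this section that have no share of all genes beside them, here or above, cannot be set against the other genes.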
